A study of Xenopus laevis with 59 samples.

Results

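Big *X. laevis* oocytes, the largest frog oocytes of the study, make up 10 of its 59 libraries. They were taken by their sample labels: sections A (extreme animal), B (animal), C (central), D (vegetal) and E (extreme vegetal) of a 1200 µm oocyte (replicate 1) and of a 1140 µm oocyte (replicate 2). Both oocytes were untreated and came from female 1. They are stage VI in the design text of the series and late stage V in the study's methods. They are compared with 2 medium oocytes (1050 µm, 10 libraries) and 5 small oocytes (720 to 810 µm, 25 libraries) of the same female, whereas the very small oocytes came from female 2 and entered only the joint fit of all libraries. Each oocyte had been frozen with the animal pole up and cut from pole to pole, and its slices were divided equally, in order, over 5 tubes. According to the methods of the study, libraries were made only from oocytes in which marker transcripts formed a continuous gradient in qPCR, so that the gradients of such markers are not independent evidence of an axis. Replicates within a stage are oocytes of 1 female, and p-values measure the spread of section differences between oocytes and not between animals. In the comparisons of stages this spread is estimated from all 59 libraries, including those of the very small oocytes of female 2.

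The animal-vegetal (A-V) axis of the frog oocyte is laid down during oogenesis by moving RNA. In the early pathway RNAs gather in the mitochondrial cloud and reach the vegetal cortex as part of the germ plasm, the cytoplasm that later marks the germ cells. The late pathway carries RNAs of axis and germ layer formation along microtubules to the vegetal cortex once the cloud has dispersed. Much less is known about RNAs of the animal hemisphere, in which the large nucleus (germinal vesicle) lies.

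The study measured the distribution of selected maternal transcripts by qPCR. The primers of the 6 such transcripts of *X. laevis* are shown because these transcripts include both vegetal and animal profiles, and each primer is given in lower case from 5′ to 3′.
nanos1.L forward: gcaccttttctaatgttgctgc
nanos1.L reverse: tgccgagtgagacatcagtg
grip2.L forward: tttggctttggtctctaggc
grip2.L reverse: tttgtctgtaccaccggaga
wnt11b.L forward: cagcaccagactgagcctatt
wnt11b.L reverse: cccaaaactggcccctgaa
otx1.L forward: ctccctgtgtcgtcaagagc
otx1.L reverse: ggtatcctttgctccaccgt
ifrd2.L forward: atttgcggcttgctctctct
ifrd2.L reverse: cggaacaactcctccccttc
exd2.L forward: gcagacccgcagtagaaca
exd2.L reverse: gaacccaagaaggtgcagga
The products are 115 bp long for nanos1.L, 121 bp for grip2.L, 99 bp for wnt11b.L, 97 bp for otx1.L, 187 bp for ifrd2.L and 124 bp for exd2.L. In the libraries the first 4 of these transcripts were highest in section E of both oocytes, and ifrd2.L and exd2.L were highest in section A of both.

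Total counts were 1853333 to 5639264 per library, and the shallowest library was section B of the 1200 µm oocyte. Levels are given as CPM, the counts of a transcript scaled to library size with TMM factors. A share is the CPM of a section as a percentage of the sum over the 5 sections of its oocyte, so that 20% marks an even distribution. Scaling keeps the typical transcript near this value, with median shares of 19.8% to 20% per section over the transcripts tested. A profile that most transcripts share, such as a common animal peak, is therefore not seen. The paper states that its own scaling removed most animal transcripts. Every library was made from the same amount of RNA, and shares therefore compare concentrations within the RNA of a section and not numbers of molecules. The ends are also smaller: in a sphere cut into 5 slabs of equal height, sections A and E hold 10.4% of the volume each, B and D 24.8% each and C 29.6%. All 13 transcripts of the oocyte marker list were above the filter and summed to 1500 to 1850 CPM in the 10 libraries. Libraries of the same section in both oocytes had a Pearson correlation of 0.966 to 0.979 across transcripts (log2 CPM; transcripts are not independent replicates).

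The sections of both oocytes lay in the same order on the first principal component, which took up 69.2% of the variance among 500 transcripts chosen for their variability. Section E scored 43.5 in the 1200 µm oocyte and 44.5 in the 1140 µm oocyte, and section D scored 8.43 and 16.4. Sections A, B and C shared a narrow range of scores, from -21.4 to -15.0. On the second component (11% of the variance) the A libraries scored 13.4 and 12.0, the B libraries 8.08 and -5.48 and the C libraries -3.65 and -15.9 (first value for the 1200 µm oocyte). Sections D and E of each oocyte were most like the same section of the other oocyte. Sections A to C lined up in this way only in part. B of the 1200 µm oocyte and A and C of the 1140 µm oocyte were most like the same section of the other oocyte. A and C of the 1200 µm oocyte were both most like B of the 1140 µm oocyte, which was itself most like A of the 1200 µm oocyte.

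Of 18940 transcripts whose counts averaged over 20 per oocyte, 1815 (9.58%) differed between the 5 sections (edgeR quasi-likelihood F test with the oocyte as block, Benjamini-Hochberg FDR under 0.1). Their mean share was highest in section E for 1005 transcripts, in A for 715, in B for 45, in D for 39 and in C for 11. Both oocytes had the same highest section for 1495 of them. Only 40 of the 1815 rose at each step from A to E in both oocytes, and 83 fell at each step. Shares of 12 transcripts that show the main shapes are plotted by section.

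**Figure D1:**
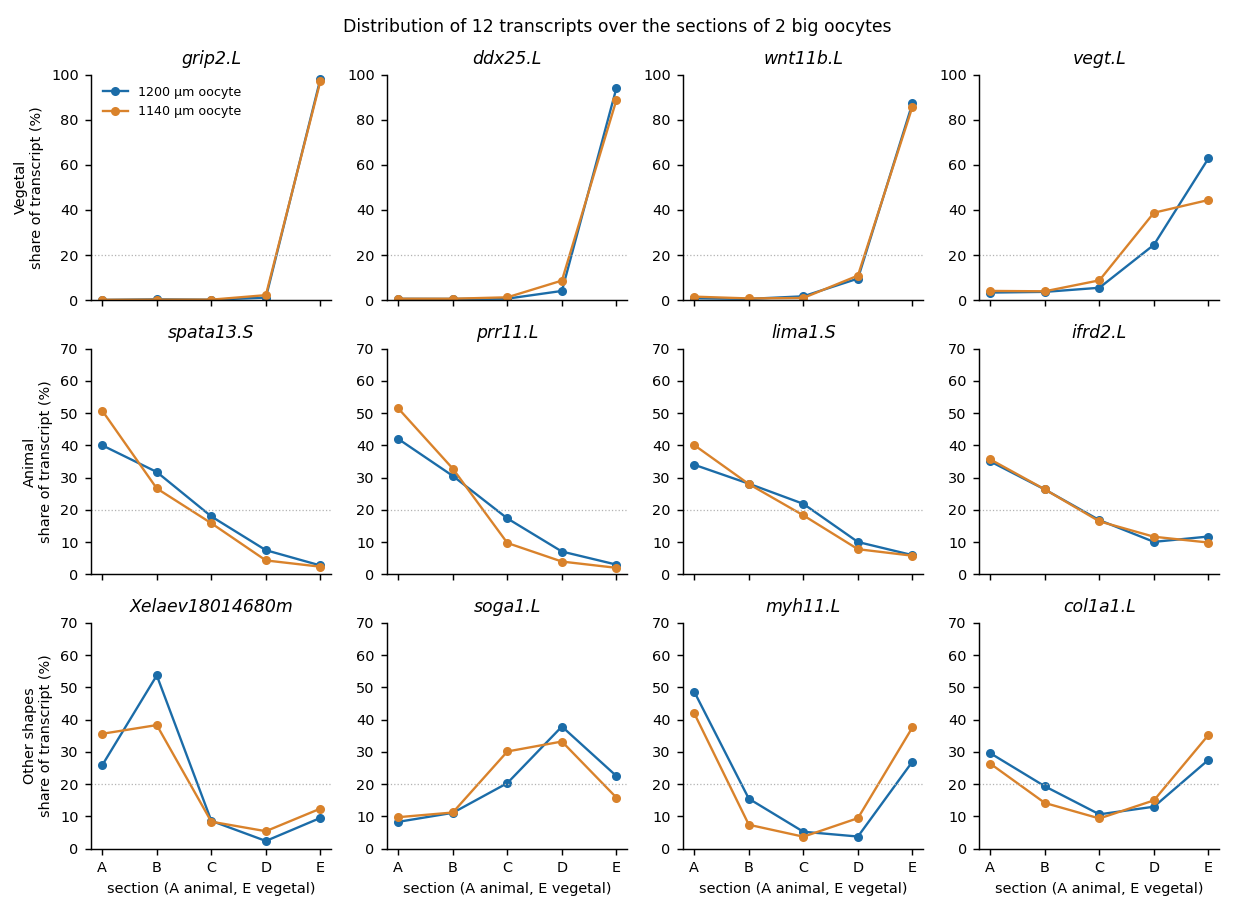
Share of each transcript (%, y axis) in sections A to E (x axis) of the 1200 µm oocyte (blue) and the 1140 µm oocyte (orange), and the dotted line marks 20%. In the top row the share of E reaches 98.1% for grip2.L in the 1200 µm oocyte, in the middle row A is highest in both oocytes, and in the bottom row the highest section is B (Xelaev18014680m), D (soga1.L) or both ends (myh11.L and col1a1.L); the range of the y axis is 0 to 100% in the top row and narrower below.

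Between neighbouring sections, counts of transcripts with at least a 1.5-fold difference (FDR under 0.1) were very unequal. Section E over D gave 570 higher (3.01%) and 16 lower (0.0845%) transcripts. For C over D, 363 transcripts were lower in C (1.92%) and 48 were higher (0.253%). Few transcripts were called between neighbouring animal sections, with 37 higher (0.195%) and 1 lower (0.00528%) for A over B, and 3 higher (0.0158%) and 4 lower (0.0211%) for B over C. The 1 transcript that was lower in A than in B was uaca.L, named after its values were seen. Without section B of the 1200 µm oocyte, the shallowest library, 18 transcripts were called for A over B and 1 for B over C. Fits with 1 big oocyte left out, in which the lone oocyte is assumed to vary like those of other stages, called 34 (without the 1200 µm oocyte) and 0 (without the 1140 µm oocyte) for A over B and 0 in both cases for B over C. For C over D they called 365 and 240.

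**Figure D2:**
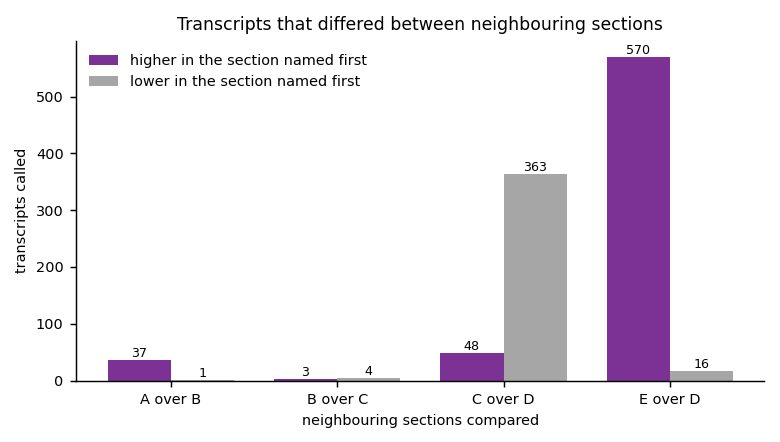
Number of transcripts (y axis) called higher (purple) or lower (grey) in the section named first, for each pair of neighbouring sections (x axis; edgeR, FDR under 0.1 and at least 1.5-fold). The step between E and D holds 570 higher transcripts, and B over C holds 7 in all.

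The vegetal gradient is the log2 fold change of E over the mean of A, B and C. It was higher in E for 1055 transcripts (5.57% of those tested) and lower in E for 350 (1.85%), with FDR under 0.1 and at least 1.5-fold. Of the 1055, 1050 had the same sign in each oocyte alone, with a median log2 fold change of 1.29 in the 1200 µm oocyte and 1.33 in the 1140 µm oocyte. The gradient was at least 4-fold for 320 transcripts and at least 16-fold for 97. Section E over D was also higher for 536 of them and lower for none. Their median share was 36.6% and 36.1% in E, 19.5% and 21.6% in D, and 12.7% to 14.5% in A, B and C (first value for the 1200 µm oocyte).

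Transcripts of the germ plasm and germ cells were among the steepest profiles. Of the 34 list members with a row, 30 were tested, and at FDR under 0.1 without a fold criterion 16 were higher in E (53.3%, against 7.12% of all tested transcripts) and 2 were lower (6.67%, against 3.28%), with a median log2 vegetal gradient of 1.29. This list was compiled with results of these data known and is no independent evidence of its direction. For nanos1.L, a translational repressor of germ cells, CPM in sections A to E were 0.185, 0.539, 0.726, 4.00 and 235 in the 1200 µm oocyte and 0, 0, 1.03, 9.76 and 196 in the 1140 µm oocyte. No nanos1.L count was found in A and B of the 1140 µm oocyte, which allows up to 0.792 CPM in A and 0.521 CPM in B, and the fold over these sections is therefore open at its upper end. Over section D alone, E was higher by a log2 fold change of 5.01 (SE 0.26, FDR 1.02e-12).

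The germ plasm scaffold protein transcript grip2.L had 1.3, 3.77, 2.18, 11.4 and 975 CPM in sections A to E of the 1200 µm oocyte and 2.11, 3.13, 3.08, 29.3 and 1272 in the 1140 µm oocyte, so that 98.1% and 97.1% of its summed level lay in E. Its vegetal gradient was a log2 fold change of 8.90 (SE 0.16, FDR 1.53e-22), and its homeolog grip2.S followed with 7.02 (SE 0.22, FDR 1.85e-18). The RNA helicase transcript ddx25.L (DEADSouth) had 11.1, 10.2, 12.3, 73.9 and 1699 CPM along the 1200 µm oocyte and 10.8, 10.9, 21.8, 148 and 1513 along the 1140 µm oocyte, with a log2 fold change of 7.02 (SE 0.16, FDR 4.53e-21). For both genes all A, B and C libraries lay far below both D libraries, and D far below E.

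Other germ plasm members had the same shape at lower levels. In E, dazl.L, which codes for an RNA-binding activator of translation in germ cells, had 153 and 188 CPM, against 0.792 to 2.54 CPM in A, B and C (log2 fold change of 6.98, SE 0.18, FDR 5.44e-20). The germ plasm transcript pgat.L had 518 and 663 CPM in E and 3.47 to 8.45 CPM in A, B and C (log2 fold change of 6.88, SE 0.16, FDR 1.14e-20). Both homeologs of sybu, which links cargo to kinesin, were called with log2 gradients of 5.96 for sybu.L and 5.66 for sybu.S (edgeR FDR 1.39e-19 and 5.44e-20). Further log2 vegetal gradients were 3.39 for dnd1.L, a protector of germ cell mRNAs, 2.71 and 1.11 for the homeologs of the lipid droplet coat plin2, and 1.47 and 2.22 for those of the RNA-binding protein rbpms2, all with an FDR under 0.1. Conversely, rbpms.L and rbpms.S did not pass (FDR 0.819 and FDR 0.98), both at low counts of 100 and 36.0 per oocyte. The 2 members lower in E were tdrkh.L and ddx4.S, named after their values were seen, with log2 gradients of -1.05 and -0.55. The first codes for a Tudor domain protein of the piRNA pathway and the second for the helicase Vasa.

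Transcripts of the late pathway and of axis formation were often higher in E as well. Of 33 members 28 were tested, and 16 were higher in E (57.1%, against 7.12% of all) and 3 lower (10.7%, against 3.28%). The median log2 vegetal gradient was 2.72, and this list too was compiled with results known. Levels of wnt11b.L, the maternal Wnt ligand of axis formation, were 5.00, 3.23, 9.79, 54.5 and 497 CPM in sections A to E of the 1200 µm oocyte and 12.7, 6.25, 8.01, 87.9 and 692 CPM in the 1140 µm oocyte (log2 fold change of 6.40, SE 0.14, FDR 4.53e-21). Those of trim36.L, a ubiquitin ligase that organises vegetal microtubules, were 7.96, 12.9, 7.98, 93.9 and 945 CPM and 10.8, 11.5, 17.0, 179 and 1095 CPM in the same order (log2 fold change of 6.55, SE 0.14, FDR 2.6e-21). Section D held 8.80% and 13.7% of trim36.L, against 1.15% and 2.24% of grip2.L.

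In contrast, the T-box transcription factor vegt, needed for endoderm and mesoderm, was spread over sections D and E. vegt.L had 48.9, 53.3, 79.8, 356 and 912 CPM in sections A to E of the 1200 µm oocyte and 54.4, 52.3, 117, 514 and 589 CPM in the 1140 µm oocyte, so that D held 24.6% and 38.8% of it and E 62.9% and 44.4%. Its E over D was 0.80 (SE 0.18, FDR 0.00945) but rested on the 1200 µm oocyte, without which it was 0.20 on the log2 scale with FDR 0.869, while its vegetal gradient was 3.55 (SE 0.14, FDR 3.12e-16). The homeolog vegt.S gave 3.23 (SE 0.13, FDR 1.78e-16). The HMG-box factor sox7.L had the same spread, with 27.8% and 33.0% in D and 62.6% and 56.2% in E (log2 fold change of 4.20, SE 0.11, FDR 1.39e-19), and it was 1 of the 4 transcripts lower in B than in C (log2 fold change of -1.19, SE 0.20, FDR 0.0211), a call that was lost when either oocyte was left out (FDR 0.82 and 0.732). Further members were otx1.L (homeobox factor, log2 gradient 4.96), bicc1.L (RNA-binding protein, 4.86) and efnb1.L (ephrin B1, 4.95). The 3 members lower in E were exd2.L, pou2f1.L and pou2f1.S, named after their values were seen.

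Only a minority of each signalling pathway was called. In the TGF-beta, BMP and Vg1 list 11 of 53 tested transcripts were higher in E (20.8%, against 7.12% of all) and 2 lower (3.77%, against 3.28%). The convertase pcsk6.L, which cleaves TGF-beta family ligands, had 393 and 437 CPM in E, against 5.74 to 11.3 CPM in A, B and C (log2 fold change of 5.75, SE 0.17, FDR 6.57e-19). The antiproliferative factor tob2.L had 541 and 571 CPM in E and 18.9 to 41.7 CPM in A, B and C (log2 fold change of 4.36, SE 0.12, FDR 2.79e-19), and the type I receptor acvr1.L followed with 2.51 (SE 0.15, FDR 9.96e-13). For the Wnt list the counts were 8 of 68 higher (11.8%, against 7.12%) and 1 lower (1.47%, against 3.28%). Beside wnt11b.L, these 8 held wnt5a.S (2.37), the receptor fzd1.L (2.21) and the beta-catenin ubiquitin ligase subunit btrc.L (2.06), each a log2 vegetal gradient with FDR under 0.1. Neither homeolog of beta-catenin itself (ctnnb1), named after its values were seen, passed, with an FDR of 0.832 for ctnnb1.L and 0.878 for ctnnb1.S.

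Cytoskeletal and cell cycle lists had a few steep vegetal transcripts among many flat ones. Among 66 motor transcripts 5 were higher in E (7.58%), close to the background of 7.12%, but 12 were lower in A (18.2%, against 4.95% of all). The kinesin kif13b.L nevertheless had 658 and 825 CPM in E and 20.5 to 29.1 CPM in A, B and C (log2 fold change of 4.98, SE 0.12, FDR 1.19e-20), and kif13b.S gave 2.58 (SE 0.20, FDR 2.83e-10). Pericentrin (pcnt.L), the centrosome scaffold, had 206, 229.5, 243, 655 and 1561 CPM in sections A to E of the 1200 µm oocyte and 176, 215, 262, 866 and 1540 CPM in the 1140 µm oocyte (log2 fold change of 2.81, SE 0.10, FDR 4.44e-17). The spindle list as a whole had 9 of 76 higher (11.8%, against 7.12%) and 5 lower (6.58%, against 3.28%) in E. In A 13 were lower (17.1%, against 4.95%). Those higher in E held the kinase ttk.L (log2 gradient 2.20) and the kinetochore motor cenpe.L (1.35). In the cell cycle and meiosis list 5 of 71 were higher (7.04%), close to the background of 7.12%. Both homeologs of the checkpoint kinase chek1 and of the transcription factor e2f1 were among these 5. The largest were chek1.S (3.58) and e2f1.L (2.91). RNA localization and translation factors gave 7 of 48 (14.6%, against 7.12%), led by the P-body helicase ddx6.L (1.92).

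The steepest gradients also held transcripts without a gene name. loc101732660.L had 1.48, 1.08, 0.726, 5.45 and 552 CPM in sections A to E of the 1200 µm oocyte and 1.58, 0.347, 0.616, 16.2 and 690.2 CPM in the 1140 µm oocyte, and its log2 fold change of 9.60 (SE 0.20, FDR 1.8e-21) was next to that of nanos1.L at the top of the table. Models Xelaev18028251m and Xelaev18030459m had log2 gradients of 8.15 and 7.56. In all, 180 transcripts had more than 50% of their level in E in both oocytes, and 178 of them were among the 1815. More than 80% in E in both was found for 30.

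The animal gradient is the log2 fold change of A over the mean of C, D and E. It was higher in A for 740 transcripts (3.91%) and lower in A for 504 (2.66%). The 740 had smaller slopes than the vegetal set: the median log2 fold change was 0.82 in the 1200 µm oocyte and 1.07 in the 1140 µm oocyte, 66 were at least 4-fold and 1 at least 16-fold. Their median share fell gradually from A to D but not further to E, with 28.6% and 32.4% in A, 21.9% and 20.9% in B, 17.7% and 16.2% in C, 15.1% and 13.6% in D and 15.3% and 15.7% in E (first value for the 1200 µm oocyte). Of these 740, 251 were also called lower in E by the vegetal gradient, and 60 were called higher there. Leaving out the 1140 µm oocyte gave 819 calls in both directions and leaving out the 1200 µm oocyte 1623, against 1244 with both. Only 44 of the 1815 had more than 40% of their level in A in both oocytes.

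The transcript spata13.S had 276, 219, 124, 51.8 and 19.0 CPM in sections A to E of the 1200 µm oocyte and 359.6, 189, 112, 30.6 and 16.8 CPM in the 1140 µm oocyte (log2 fold change of 2.85, SE 0.13, FDR 7.77e-13). It fell at every step in both oocytes. The cell cycle protein transcript prr11.L had 47.4, 34.5, 19.6, 7.99 and 3.41 CPM and 57.6, 36.6, 10.9, 4.44 and 2.26 CPM in the same order (log2 fold change of 3.05, SE 0.21, FDR 1.05e-10), also with a fall at every step. The unnamed loc100498592.L had the largest animal gradient of transcripts with a mean of at least 100 counts per oocyte, a log2 fold change of 3.46 (SE 0.32, FDR 2.38e-08), from 38 and 55.7 CPM in A, but in the 1200 µm oocyte B (12.4 CPM) lay below C (22.5 CPM).

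Further animal transcripts code for proteins of the cytoskeleton and of metabolism. The actin-binding protein lima1 had both homeologs in the set, with 333, 276, 214, 98.5 and 58.5 CPM for lima1.S in sections A to E of the 1200 µm oocyte and 412, 288, 188, 80.3 and 59.5 CPM in the 1140 µm oocyte (log2 fold change of 1.87, SE 0.11, FDR 1.09e-11), and 1.47 (SE 0.10, FDR 9.97e-11) for lima1.L. The spindle protein transcript nusap1.S gave 1.88 (SE 0.11, FDR 1.35e-11), the glucokinase adpgk.L 1.66 (SE 0.11, FDR 1.05e-10) and the transmembrane protein prrg4.L 2.12 (SE 0.14, FDR 6.07e-11). The myosin phosphatase partner mprip had both homeologs at similar values, 1.94 for mprip.L and 1.89 for mprip.S (log2). The 2 animal qPCR transcripts had gradients in the same range. ifrd2.L, a regulator of translation, had 154, 116, 74.0, 44.3 and 51.6 CPM in the 1200 µm oocyte and 165, 122, 76.0, 53.9 and 45.6 CPM in the 1140 µm oocyte (log2 fold change of 1.5, SE 0.11, FDR 2.77e-10). For the exonuclease exd2.L these were 242, 152, 123, 67.8 and 71.1 CPM and 279.6, 178, 128, 60.1 and 49.2 CPM (log2 fold change of 1.74, SE 0.12, FDR 9.97e-11). Among transcripts that earlier studies placed at the animal pole, 11 of 29 tested were higher in A (37.9%, against 6.25% of all transcripts at FDR under 0.1) and none was lower (4.95% of all). The median log2 animal gradient of the list was nevertheless -0.02, and 2 members were higher in E (6.9%, against 7.12%). This list too was compiled with results of these data known and is no independent evidence of its direction. Neither pabpc4.L (FDR 0.42, with only 22.5 counts per oocyte) nor tubb.L (FDR 0.889) nor tubb.S (FDR 0.216) passed, whereas nup93.L did with 0.39 (SE 0.12, FDR 0.0404). That gradient lay under 1.5-fold, and nup93.L was highest in B (24.5% and 23.6%, against 22.3% and 23.5% in A). All these values are relative to the typical transcript, so that an animal profile shared by most transcripts is not seen in them.

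In the oxidative phosphorylation list most members did not pass. Of 119 transcripts 28 were higher in A (23.5%, against 6.25% of all tested) and none lower (4.95% of all). In E 15 were lower (12.6%, against 3.28%) and none higher (7.12% of all). The median log2 animal gradient was 0.31. Examples are cytochrome c oxidase subunit cox7b.S, with 27.6, 15.1, 16.7, 15.3 and 12.7 CPM in sections A to E of the 1200 µm oocyte and 36.4, 20.3, 13.1, 6.43 and 9.38 CPM in the 1140 µm oocyte (log2 fold change of 1.40, SE 0.22, FDR 7.13e-05), and cox4i2.S (0.88, SE 0.11, FDR 2.6e-06). The complex I subunit ndufs4.L gave 1.17 (SE 0.18, FDR 6.43e-05) and the ATP synthase subunit atp5c1.L 0.87 (SE 0.13, FDR 3.49e-05). Ribosomal protein transcripts had 28 of 102 higher in A (27.5%, against 6.25%) and none lower (4.95% of all), with a median of 0.27. In E 3 were lower (2.94%, against 3.28%). The largest named one, rpl36.S, gave 1.02 (SE 0.18, FDR 0.000212). Nearly every cell type has these mRNAs, and the part of cells around the oocyte, whose markers are given further on, was not tested.

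Several nuclear and replication genes had modest animal values. The importin tnpo1.L gave 0.65 (SE 0.10, FDR 9.31e-05), the pore protein nup210.L 0.78 (SE 0.12, FDR 3.9e-05), and the replicative helicase subunit mcm2.L 0.57 (SE 0.10, FDR 0.00019). In the whole nuclear pore and import list 6 of 69 were higher in A (8.70%), close to the 6.25% of all transcripts, and 7 were lower in E (10.1%, against 3.28%). Histone chaperones and oocyte chromatin genes were nearly flat, with 3 of 55 higher in A (5.45%, against 6.25%) and 4 lower (7.27%, against 4.95%). Egg envelope genes had 2 of 7 tested higher in E (28.6%, against 7.12%), zp2.L (0.49) and zp4.S (0.66). In A 1 of the 7 was higher (14.3%, against 6.25%).

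**Figure D3:**
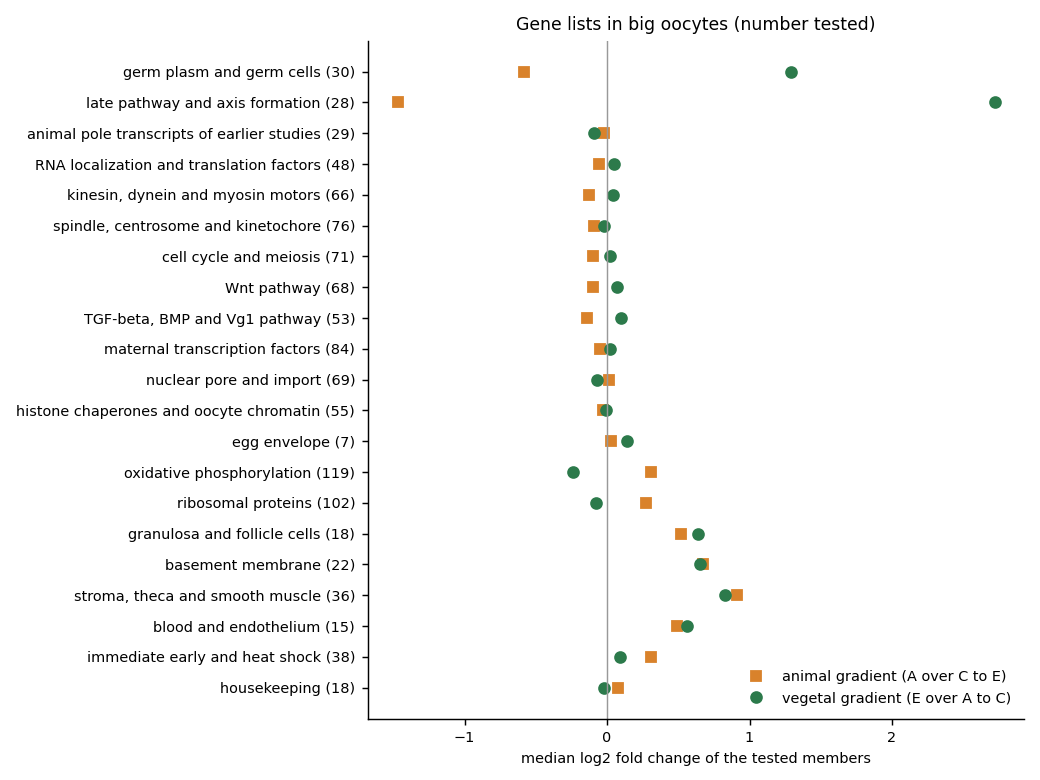
Median log2 fold change (x axis) of the tested members of each gene list shown (y axis, number tested in brackets) for the vegetal gradient (green circles) and the animal gradient (orange squares) in big oocytes. Germ plasm (1.29) and late pathway (2.72) lists lie far to the right for the vegetal gradient, and the lists of cells around the oocyte lie to the right for both.

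Relative to the typical transcript, few peaked inside the axis, and a peak shared by most transcripts would be hidden by the scaling. Xelaev18014680m, an unannotated model, was highest in B of both oocytes, with 532, 1104, 177, 48.3 and 195 CPM in sections A to E of the 1200 µm oocyte and 505, 544, 118, 76.3 and 176 CPM in the 1140 µm oocyte. Its B over C was a log2 fold change of 2.46 (SE 0.22, FDR 1.24e-06), 1 of the 3 called higher there, and this call was lost with the 1200 µm oocyte left out (FDR 0.859) and with the 1140 µm oocyte left out (FDR 0.583). Its levels in A and B of the 1140 µm oocyte nearly met. Of the 23 transcripts with a section difference and B highest in both oocytes, parp2.L, named after its values were seen, had a like profile at a mean of 61.5 counts per oocyte, with 61.3% and 43.0% in B and no count in D of either. Most others were shallow: mcm2.L held 26.0% and 25.6% in B, against 24.1% and 24.9% in A, and A over B was -0.07 (SE 0.12, FDR 0.976). Section C was highest in both oocytes for 5, none above 27.9%.

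Section D was highest in both oocytes for 20 transcripts. Both homeologs of soga1 were among them: soga1.L had 90.6, 121, 222, 414 and 246 CPM in sections A to E of the 1200 µm oocyte and 99.0, 114, 306, 338 and 161 CPM in the 1140 µm oocyte. E over D was -0.90 (SE 0.17, FDR 0.00149) for soga1.L and -0.70 (SE 0.15, FDR 0.00453) for soga1.S, so that both were lower in E than in D. The call was lost for soga1.S without the 1200 µm oocyte (FDR 0.161) and for soga1.L without the 1140 µm oocyte (FDR 0.18). The ankyrin repeat protein transcript uaca.L had 142, 260.2, 357, 493 and 338 CPM and 142, 241, 371, 386 and 304 CPM in the same order, with its low point at the animal pole: A over B was -0.82 (SE 0.13, FDR 0.0116) and A over C -1.36 (SE 0.13, FDR 3.01e-06). The first of these calls was lost with either oocyte left out (FDR 0.288 and 0.46). Over all transcripts A over C was lower for 22 (0.116%) and higher for 377 (1.99%).

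A different shape was low in the centre and high at both ends. Of the tested transcripts, 129 were called higher both in A over C and in E over C, and none was called lower in both. This count rested on the 1140 µm oocyte: it was 3 without that oocyte and 147 without the 1200 µm oocyte, and A over C alone had 32 and 744 calls in these fits. Single contrasts gave 1016 (5.36%) higher and 146 (0.771%) lower for E over C. The median shares of the 129 were 29.5% and 33.7% in A, 17.7% and 12.0% in B, 9.07% and 6.05% in C, 13.6% and 12.1% in D, and 28.1% and 34.6% in E (first value for the 1200 µm oocyte). Smooth muscle myosin, myh11.L, had 23.7, 7.54, 2.54, 1.82 and 13.2 CPM in sections A to E of the 1200 µm oocyte and 18.8, 3.3, 1.64, 4.22 and 16.8 CPM in the 1140 µm oocyte (A over C 3.39, SE 0.42, FDR 3.17e-05, E over C 2.92, SE 0.46, FDR 5.23e-05). Collagen col1a1.L had 134, 87.8, 48.2, 59 and 125 CPM and 111, 59.4, 39.2, 62.8 and 148 CPM in the same order (A over C 1.5, SE 0.17, FDR 2.04e-05, E over C 1.67, SE 0.17, FDR 9.08e-08). Both genes are typical of connective tissue and smooth muscle.

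Marker lists of the cells that surround an oocyte often had this shape. Of the 91 tested transcripts on the 4 lists, 30 were among the 129, which make up 0.681% of all tested transcripts: 14 of 36 for stroma, theca and smooth muscle, 8 of 22 for basement membrane, 4 of 18 for granulosa and follicle cells and 4 of 15 for blood and endothelium. Of the 37 granulosa and follicle cell members 19 were below the filter, among them both copies of fshr, lhcgr, star, amhr2 and wt1. Among the 18 that passed, 6 keratin transcripts were abundant without higher ends. They summed to 736 to 757 CPM in A, 697 to 867 CPM in E and 733 to 864 CPM in B, C and D. The 12 others were low, for instance the aromatase cyp19a1.L of granulosa cells. It had 26.3, 16.7, 6.89, 9.27 and 19.5 CPM in sections A to E of the 1200 µm oocyte and 28.5, 9.73, 7.60, 7.99 and 13.6 CPM in the 1140 µm oocyte. Basement membrane collagen col4a5.L had 48.7, 32.3, 10.2, 11.4 and 45.3 CPM and 38, 10.2, 5.75, 14.4 and 49.5 CPM in the same order, and adult globin hba1.L 26.9, 16.7, 6.89, 6.72 and 30.7 CPM and 33.8, 5.21, 4.93, 8.43 and 17.5 CPM. In all 3 the C libraries were the lowest or next to the lowest, and section B of the 1200 µm oocyte lay above B of the 1140 µm oocyte. Some abundant members of the same lists, named after their values were seen, had no higher ends. Log2 A over C and E over C were -0.25 and -0.26 for lama5.S and -0.03 and -0.09 for lamc1.S, both of the basement membrane list. On the blood and endothelium list they were -0.13 and -0.06 for slc4a1.L.

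Stroma, theca and smooth muscle markers summed to 1320 to 1350 CPM in A, 1210 to 1620 CPM in E and 998 to 1170 CPM in B, C and D. Basement membrane markers summed to 905 to 955 CPM in A, 896 to 1040 CPM in E and 699 to 894 CPM in B, C and D. For blood and endothelium the sums were 161 to 188 CPM in A, 162 to 171 CPM in E and 101 to 170 CPM in B, C and D, and 24 of the 39 members were below the filter. Granulosa and follicle cell markers summed to 848 to 853 CPM in A, 802 to 959 CPM in E and 770 to 928 CPM in B, C and D, and these ranges overlapped. Most of this sum came from 6 keratin transcripts (krt8, krt18 and krt19), singled out after their values were seen. The 12 other tested members summed to 95.8 to 112 CPM in A and 92.1 to 105 CPM in E, above the 29.4 to 64.1 CPM in B, C and D. Likewise, fn1.L and fn1.S, also singled out after their values were seen, made up much of the stroma, theca and smooth muscle sum without higher ends. This pair summed to 678 to 685 CPM in A, 629 to 844 CPM in E and 676 to 810 CPM in B, C and D. Without it the sum was 646 to 664 CPM in A, 578 to 777 CPM in E and 209 to 469 CPM in B, C and D. Oocyte markers summed to 1540 to 1560 CPM in A, 1630 to 1850 CPM in E and 1500 to 1600 CPM in B, C and D. Whether cells attached to the surface give the values at the ends was not tested, and fewer cells of a type and less RNA per cell cannot be told apart in bulk libraries.

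**Figure D4:**
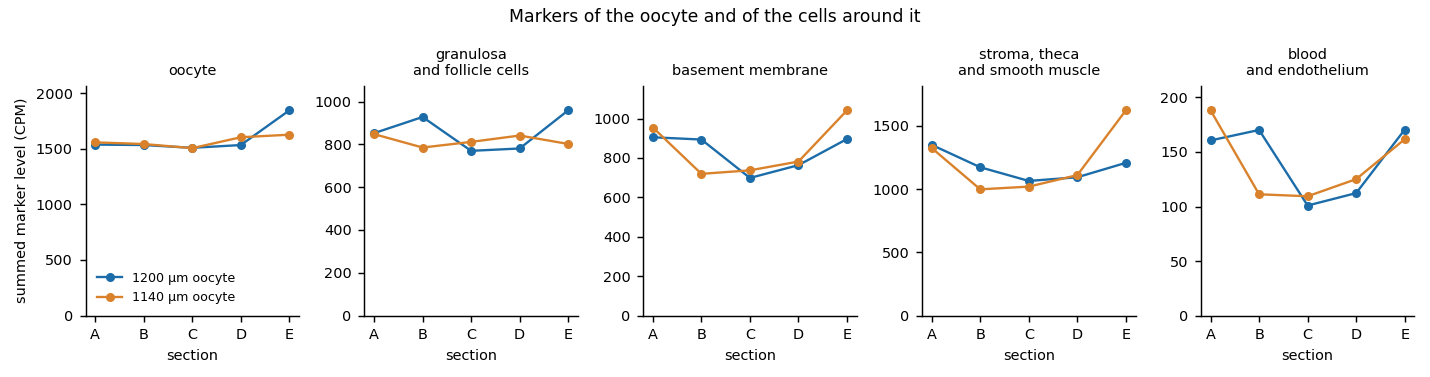
Summed level (CPM, y axis) of the tested markers on each list in sections A to E (x axis) of the 1200 µm oocyte (blue) and the 1140 µm oocyte (orange). Oocyte markers stay between 1500 and 1850 CPM and are highest in E of both oocytes (1845 and 1626 CPM). The sums for stroma, basement membrane and blood dip in the centre.

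Immediate early genes are transcribed within minutes of a stimulus in many cell types. Of 38 tested immediate early and heat shock transcripts 13 were higher in A (34.2%, against 6.25% of all tested) and 1 lower (2.63%, against 4.95%). None was called in the vegetal gradient, against 7.12% higher and 3.28% lower of all tested. That gradient sets E against a mean that includes A, so that it is lowered for a transcript high at both ends. Of the 38, 2 were among the 129 transcripts high at both ends, which make up 0.681% of all tested. zfp36.S was among these, with A over C of 2.54 (edgeR FDR 0.000351) and E over C of 1.73 (edgeR FDR 0.0134). The mRNA decay factor zfp36.S had 13.9, 7.54, 5.44, 4.00 and 8.28 CPM in sections A to E of the 1200 µm oocyte and 31.1, 6.43, 2.67, 4.44 and 16.2 CPM in the 1140 µm oocyte (log2 fold change of 1.90, SE 0.27, FDR 1.54e-05). Levels of junb.L were 76.0 CPM in A of the 1140 µm oocyte and 26.7 CPM in A of the 1200 µm oocyte, and in the 1200 µm oocyte B had 29.6 CPM.

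Homeologs, the .L and .S copies that *X. laevis* keeps of many genes, were called together or singly. Of 5432 pairs with both copies tested, the vegetal gradient was called higher (at least 1.5-fold) for both copies in 104, for .L alone in 217 and for .S alone in 201. In 283 of these 418 the other copy had the same sign. The corresponding counts for higher in A were 62, 162 and 138. In 3 pairs the copies were called in opposite directions by the vegetal gradient. Among these was exd2: exd2.S had 130.2, 106, 72.2, 52.0 and 284 CPM in sections A to E of the 1200 µm oocyte and 142, 94.5, 81.9, 64.3 and 337 CPM in the 1140 µm oocyte (log2 fold change of 1.62, SE 0.11, FDR 6.79e-12), whereas exd2.L fell towards E (log2 fold change of -1.57, SE 0.15, FDR 8.16e-09). For ifrd2 only the .L copy followed the axis: ifrd2.S had 42.6, 38.8, 46.1, 49.2 and 57.0 CPM and 44.1, 47.9, 49.1, 34.6 and 55.3 CPM in the same order and an animal gradient of -0.16 on the log2 scale (FDR 0.632). Other pairs with a steep copy and a flat one, picked for their large difference, were cnppd1, with a log2 vegetal gradient of 5.23 for cnppd1.L and -0.0021 for cnppd1.S, and naga, with -0.02 for naga.L and 5.08 for naga.S. A call in 1 copy and not in the other does not test their difference, and reads that fit both copies may have been lost or split in counting.

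Compared with medium oocytes, gradients of big oocytes were not distinguishable at FDR under 0.1 in a joint edgeR fit of all 59 libraries with an intercept for each oocyte. Of 19049 transcripts none was called higher (0.00%) or lower (0.00%) for the vegetal gradient, and likewise none higher (0.00%) or lower (0.00%) for the animal gradient. An unadjusted edgeR p under 0.05 was found for 503 transcripts in the vegetal and 597 in the animal contrast. Both counts are smaller than a p under 0.05 would give among 19049 transcripts that do not differ. The test may therefore be conservative for this comparison, which makes the absence of calls weak evidence. The DESeq2 Wald test of the same model called 0 and 0. With 2 oocytes a side this does not show that the profiles are the same.

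Compared with small oocytes, the vegetal gradient was higher in big oocytes for 513 transcripts (2.69%) and lower for 160 (0.840%), and the animal gradient was higher for 271 (1.42%) and lower for 136 (0.714%). Without the 1140 µm oocyte the animal contrast had 225 calls in both directions, against 407 with both. Among germ plasm transcripts, grip2.L, ddx25.L and nanos1.L were not called. Shares in the comparisons of stages use TMM factors of all 59 libraries and differ slightly from those above. For grip2.L, E held 98.1% and 97.2% in big oocytes and 96.0% to 97.9% in small oocytes, and the gradients differed by 0.86 (SE 0.65, FDR 0.734). ddx25.L differed by -0.02 (SE 0.42, FDR 1), and nanos1.L, with counts near 0 in the animal sections, by 1.18 (SE 1.24, FDR 0.862). Steeper in big oocytes was dnd1.L, with 67.8% and 60.4% in E of big oocytes and 29.4% to 37.9% in E of small oocytes (2.32, SE 0.18, FDR 1.27e-12). No small oocyte reached the share of either big one.

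A similar difference was found in late pathway and other vegetal transcripts. For vegt.L the log2 vegetal gradient was 1.81 in small oocytes, 3.29 in medium oocytes and 3.54 in big oocytes, and the difference between big and small oocytes was 1.74 (SE 0.18, FDR 1.9e-09). E held 62.8% and 44.5% of vegt.L in big oocytes and 35.7% to 49.0% in small oocytes. Section A held 3.41% and 4.16% in big oocytes and 9.78% to 14.8% in small oocytes. Shares in E overlapped between the groups, whereas those in A did not. Big minus small differences were also called for wnt11b.L (1.48, SE 0.34, FDR 0.00282, but FDR 0.118 without the 1140 µm oocyte), chek1.S (2.05, SE 0.17, FDR 5.64e-12), pcnt.L (1.42, SE 0.16, FDR 1.07e-08) and cnppd1.L (2.38, SE 0.27, FDR 5.79e-09).

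Several transcripts with steep animal gradients had larger shares in A of big than of small oocytes, whereas atp5c1.L held 29.1% and 29.6% in A of big oocytes and 26.1% to 34.2% in A of small oocytes. For prr11.L section A held 42.2% and 51.9% in big oocytes and 18.3% to 36.1% in small oocytes, and the animal gradients differed by 2.56 (SE 0.27, FDR 1.89e-09). spata13.S had 40.3% and 51.1% in A of big oocytes and 19.9% to 36.6% in A of small oocytes (2.11, SE 0.21, FDR 1.05e-09). The shares of ifrd2.L in A were 35.3% and 36.0% in big oocytes and 18.4% to 23.7% in small oocytes (1.51, SE 0.12, FDR 2.36e-12), and those of mprip.L 37.7% and 47.2% in big oocytes and 16.7% to 24.8% in small oocytes (1.95, SE 0.16, FDR 2.36e-12). In none of these 4 did the 2 groups overlap. Differences of the same sign were found for lima1.S (1.26, SE 0.15, FDR 3.06e-08), nusap1.S (1.57, SE 0.14, FDR 1.32e-11), exd2.L (1.32, SE 0.22, FDR 6.04e-05) and mprip.S (1.76, SE 0.15, FDR 2.19e-11).

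Members of the gene lists were counted at FDR under 0.1 without a fold criterion. The vegetal gradient was higher in big than in small oocytes for 7 of 31 germ plasm members, 12 of 28 late pathway members and 9 of 53 TGF-beta, BMP and Vg1 members, against 669 of 19049 transcripts in all (3.51%). It was lower for 1, 2 and 0 members of these lists in the same order, against 292 of 19049 (1.53%). The animal gradient was higher for 9 of 29 animal pole members of earlier studies, against 418 of 19049 (2.19%), and lower for 0, against 197 of 19049 (1.03%). No member of the oxidative phosphorylation or ribosomal protein lists was called in either gradient. Of 84 tested members of the 4 lists of cells around the oocyte, the vegetal gradient was called higher in big oocytes for 2 and lower for 1. The animal gradient was higher for 1 and lower for 1. These few calls are near the shares over all transcripts (3.51% and 1.53%, and 2.19% and 1.03%). Against medium oocytes no member was called, but median log2 differences (vegetal, then animal gradient) were not all small. They were -0.77 and 0.91 for stroma, theca and smooth muscle and -0.19 and 0.42 for basement membrane. For granulosa and follicle cells they were -0.12 and 0.3, for blood and endothelium -0.09 and 0.48, and over all transcripts 0.01 and 0. These medians were not tested.

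**Figure D5:**
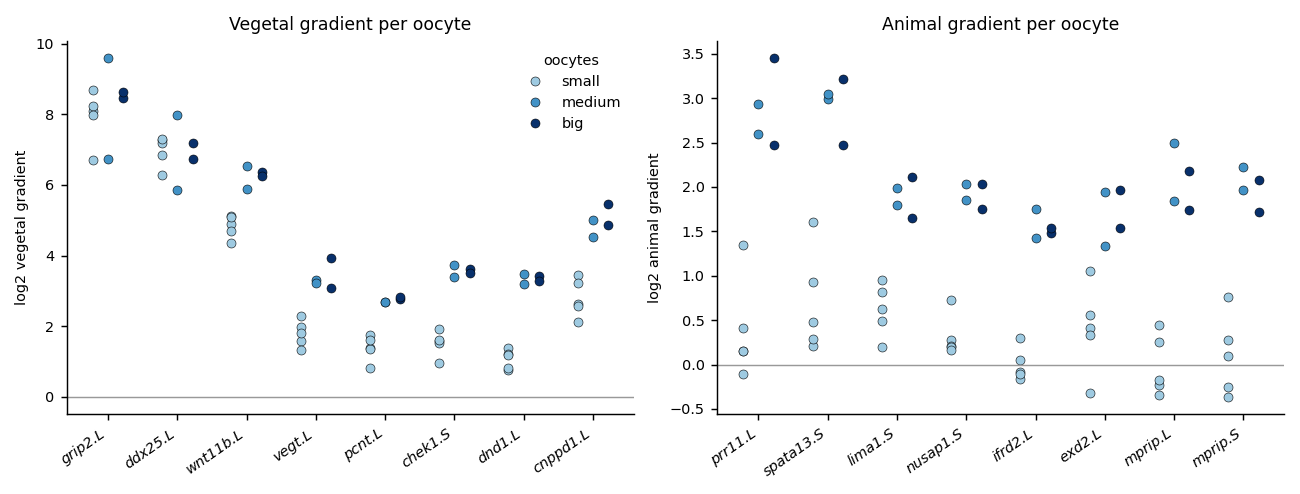
Log2 vegetal gradient (left, y axis) and log2 animal gradient (right, y axis) in each small (5, light blue), medium (2, mid blue) and big (2, dark blue) oocyte for 8 transcripts a panel, from log2(CPM + 0.5). Big and medium oocytes lie close together for most. For all 8 animal transcripts, each shown after it was called for a difference between big and small oocytes, both big oocytes lie above all 5 small ones.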

How the data were processed

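According to the methods of the study, slices of 30 µm were pooled into 5 sections, rRNA was depleted and libraries of equal RNA input were sequenced on a NextSeq 500. Per the labels and methods, the authors trimmed reads (Trimmomatic), removed rRNA and mitochondrial reads, aligned with STAR 2.5.2b to *X. laevis* v9.1 and counted with HTSeq. The deposited raw counts were used as they stand. The authors' normalized tables and their tables of altered transcripts hold their own comparisons and were not used.

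Transcripts whose counts averaged over 20 per oocyte were tested with the edgeR 4.0.16 quasi-likelihood F test (R 4.3.3, TMM factors, oocyte as block, 4 residual degrees of freedom, biological coefficient of variation 0.108). Differences between stages came from 1 fit of all 59 libraries with an intercept per oocyte. Calls needed a Benjamini-Hochberg FDR under 0.1 and at least 1.5-fold, and list counts and the section difference FDR alone. Standard errors were derived from the F statistic and are approximate. Gradients per oocyte used log2(CPM + 0.5). Same-numbered sections come from 1 oocyte, and their deviations correlated by 0.0441 to 0.27 (median 0.136 over 10 pairs of sections). Scripts were tested on simulated data.

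Members and gene lists were chosen with earlier results of these data known. Transcripts named are those of the study's text and primers, up to 6 per list by FDR, the 10 largest changes per direction and contrast with a mean of at least 100 counts, and their homeologs, and any other is marked where it appears. Alternatives covered FDR, fold, scaling, filter, block, DESeq2 1.42.0, all libraries in 1 fit, thinning and leaving out oocytes. Leaving out section B of the 1200 µm oocyte, and the count of transcripts high at both ends, were added after seeing the data. Some items are not reported here.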

Additional observations from a re-analysis of the deposited data

Results flagged for a closer look

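The gradients of 14 named transcripts differed between big and small oocytes in the joint edgeR fit, which tested the difference itself. These 14 are listed because they were called in this contrast, so that their agreement is no further evidence. The named transcripts grip2.L, ddx25.L and nanos1.L were tested and not called. For the vegetal gradient the log2 differences, big minus small, were 2.32 for dnd1.L, 2.38 for cnppd1.L, 2.05 for chek1.S, 1.74 for vegt.L, 1.42 for pcnt.L and 1.48 for wnt11b.L. For the animal gradient they were 2.56 for prr11.L, 2.11 for spata13.S, 1.26 for lima1.S, 1.57 for nusap1.S, 1.51 for ifrd2.L, 1.32 for exd2.L, 1.95 for mprip.L and 1.76 for mprip.S. Only wnt11b.L lost its call under an alternative, without the 1140 µm oocyte. Groups of 2 big oocytes are too small to test single oocytes as outliers.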

How the results depend on the processing

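No called value of a named transcript changed its direction under any alternative. Of 1332 values of 118 transcripts and contrasts, 1277 kept their side of the threshold, 52 lost a call and 3 gained one. These labels use FDR alone, so the alternative without a fold criterion could change none of its 118 values. The stricter FDR reuses the main fit and could only remove calls. Counts for the vegetal gradient, the section difference, E over D and E over C stayed within 1.5 times. Without the replicate block, which ignores that sections come from 1 oocyte, A over B had 9 calls and B over C 2. At FDR under 0.05 these were 12 and 4, and without a filter on low counts 131 and 37. DESeq2 gave 9 and 11, thinning to the shallowest library 11 and 3, leaving out section B of the 1200 µm oocyte 18 and 1, and all libraries in 1 fit 4 for B over C. A over C had 210 calls in DESeq2 and 257 after thinning, and 73 and 72 transcripts were then high at both ends. With no criterion on fold the animal gradient had 2121 calls and its difference between big and small oocytes 615. Against medium oocytes the unfiltered table gave 9 calls for the vegetal and 16 for the animal gradient.

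With 1 oocyte left out, calls ranged from 0 to 34 for A over B, 0 to 0 for B over C, 240 to 365 for C over D, 32 to 744 for A over C, 3 to 147 for both ends and 819 to 1623 for the animal gradient. Between stages they ranged from 225 to 451 for the animal gradient against small oocytes, and against medium oocytes from 0 to 1 for the vegetal and 0 to 13 for the animal gradient. The cause was not tested.

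Both big oocytes came from 1 female, and 4 residual degrees of freedom support the fit within big oocytes. A count of 3 stands for 0.521 to 1.62 CPM, the level that a count of 0 still allows. This limit covers counting error only, and levels near or under it rest on 1 to 3 counts.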
